A study of Mus musculus with 8 samples.

Results

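The Hox genes of the 4 mouse Hox clusters were described in a mammary tumour cell line that had been split by EpCAM, an adhesion protein of epithelial cells. The members are the gene names made of Hox, a cluster letter from a to d and a paralogue number, which gave 39 of the 24421 gene names in the files: 11 of Hoxa, 10 of Hoxb, 9 of Hoxc and 9 of Hoxd. No measured value entered their choice. The line, MCa-P1362, came from a mammary tumour of a female Balb/c mouse, and the labels call its cells mouse breast cancer cells. Total RNA was sequenced as read pairs of 150 bp, in 8 libraries of 4 groups with 2 libraries each: coculture EpCAM+, coculture EpCAM-, monoculture EpCAM+ and monoculture EpCAM-. All groups are this line in the same serum medium, with no treatment or genetic change named in the labels. Cells of each fraction were frozen right after the sort, or cultured and passaged before freezing. The labels do not tie the words coculture and monoculture to these arms, so the words are used here only as group names. Nor is it stated that the 2 libraries of a group are separate cultures, so each p-value below is read against library-to-library spread alone, and that spread may be technical. With 2 libraries against 2, an exact test of a single value could not go below 0.333.

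Hox genes encode homeodomain transcription factors that give cells along the body axis their position. The order of the genes in a cluster follows the order of their use along the body: low paralogue numbers act toward the head, middle numbers in the trunk, and high numbers toward the tail and in the distal limb and urogenital tract. Paralogues, the genes with the same number in different clusters, arose by duplication of a cluster and often act together. Fibroblasts and other adult stromal cells keep a Hox pattern of the site they come from, and in the mammary gland the paralogue 9 genes Hoxa9, Hoxb9 and Hoxd9 act together in its growth at pregnancy.

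The files give FPKM (fragments scaled by transcript length and by library depth), so levels of different genes can be set side by side. The depth in reads is unknown. Relative to monoculture EpCAM+ replicate 1, the libraries' depths were estimated at between 0.912 and 1.16, from the commonest ratio of FPKM among genes at low levels. In each of the other libraries only 10 to 31 genes had that ratio, so the estimate is rough. FPKM summed to between 387489 and 414612. The labelled fractions matched their markers: 16 of 16 stromal genes were lower and 12 of 12 epithelial genes higher in EpCAM+ than in EpCAM- of both cultures. The 16 stromal genes summed to between 14275 and 14335 FPKM in coculture EpCAM-, 16318 to 16380 in monoculture EpCAM-, 249 to 250.1 in coculture EpCAM+ and 25.3 to 25.5 in monoculture EpCAM+. The 12 epithelial genes summed to between 10208 and 10313 FPKM in coculture EpCAM+, 9464 to 9567 in monoculture EpCAM+, 33.3 to 33.7 in coculture EpCAM- and 19.0 to 19.996 in monoculture EpCAM-. Of the other cell types listed, a leukocyte marker (Cd68) and an endothelial marker (Kdr) were tested and not called at 2-fold. A muscle marker (Ckm) was higher and a neural marker (Tubb3) lower in EpCAM+ of both cultures, and no adipocyte or erythroid marker was tested. Ckm reached 1 FPKM only in EpCAM+ and Tubb3 only in EpCAM-, so both had to differ. The summed leukocyte markers lay between 0.691 and 1.43 FPKM over the libraries, with Cd3e and Adgre1 at 0 in all 8.

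EpCAM- cells carried a broad Hox pattern over all clusters, and EpCAM+ cells a low pattern that came mostly from Hoxa. Summed over the 39 genes, the Hox level was 277 ± 1.65 FPKM in coculture EpCAM- and 30.2 ± 0.753 in coculture EpCAM+ (SD, n = 2), 9.17 times as high in EpCAM-. In monoculture the sums were 240.2 ± 2.41 in EpCAM- and 24.6 ± 0.00603 in EpCAM+ (SD, n = 2), a ratio of 9.76. In each culture both EpCAM- libraries lay far above both EpCAM+ libraries. Of the 39 genes, 24 reached 1 FPKM in both libraries of coculture EpCAM- and 24 in those of monoculture EpCAM-, against 9 in coculture EpCAM+ and 8 in monoculture EpCAM+. At 10 FPKM or more in both libraries stood 11 genes in coculture EpCAM-, 8 in monoculture EpCAM- and 0 in either EpCAM+ group. At 0 in both libraries were 6 genes in coculture EpCAM-, 10 in monoculture EpCAM-, 12 in coculture EpCAM+ and 17 in monoculture EpCAM+. These are bulk libraries, so fewer cells that use a gene and less of its RNA per cell cannot be told apart.

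**Figure D1:**
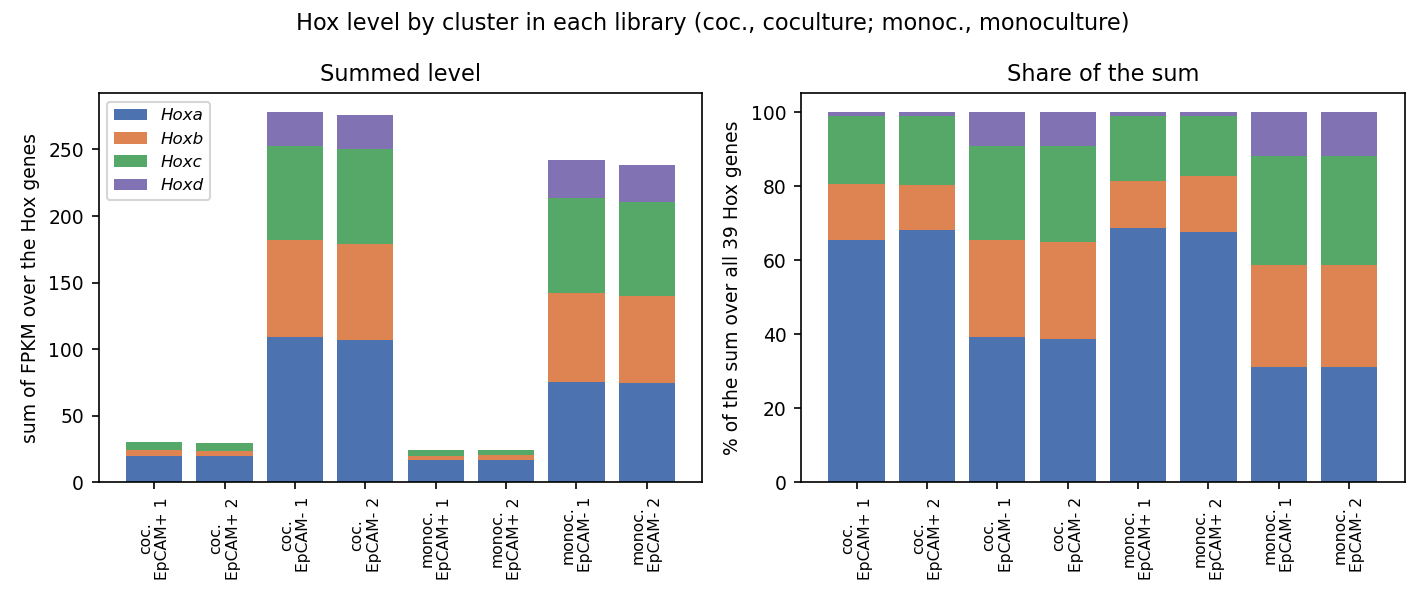
Stacked bars give, for each of the 8 libraries, the FPKM summed over the genes of each Hox cluster (left) and each cluster's share of the sum over all 39 genes in percent (right). The EpCAM- bars are 9.17 times as high as the EpCAM+ bars in coculture and 9.76 times in monoculture, and Hoxa fills 66.7% and 68.1% of the EpCAM+ sums.

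The makeup of the sum differed between the fractions by cluster. Hoxa gave 66.7% ± 1.96 of the Hox sum in coculture EpCAM+ and 68.1% ± 0.720 in monoculture EpCAM+, but 38.99% ± 0.447 in coculture EpCAM- and 31.2% ± 0.0652 in monoculture EpCAM- (SD, n = 2). Hoxd stood at the other end, with 1.07% and 1.13% of the sum in the EpCAM+ groups against 9.18% and 11.7% in the EpCAM- groups. Hoxb held 13.7% and 13.9% in EpCAM+ of coculture and monoculture against 26.2% and 27.5% in EpCAM-. Hoxc held 18.5% and 16.8% in EpCAM+ against 25.6% and 29.5% in EpCAM-. No library of one fraction reached the range of the other fraction in the share of any cluster. The ratio of EpCAM- to EpCAM+ was therefore lowest for Hoxa (5.36 in coculture, 4.47 in monoculture), higher for Hoxc (12.7 and 17.1) and Hoxb (17.5 and 19.3), and highest for Hoxd (78.8 and 101). The Hoxd ratio rests on EpCAM+ sums of 0.322 and 0.278 FPKM, and its coculture value moved from -6.30 to -11.04 on the log2 scale of EpCAM+ over EpCAM- when the stromal share described below was subtracted.

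Over the ranges of paralogues 1 to 3, 4 to 8 and 9 to 13, the shares of the sum differed far less than by cluster. Paralogues 4 to 8 made up 76.7% ± 0.0941 of the Hox sum in coculture EpCAM+, 69.9% ± 0.400 in coculture EpCAM-, 71.5% ± 1.68 in monoculture EpCAM+ and 70.9% ± 0.0963 in monoculture EpCAM- (SD, n = 2). Both fractions thus carried most of their Hox RNA in paralogues 4 to 8, a range that also holds most of the tested members. Paralogues 1 to 3 held between 11.1% and 16.2% of the sum and paralogues 9 to 13 between 10.2% and 16.1% over the 8 libraries. In monoculture the EpCAM+ libraries (70.3% and 72.7%) lay on both sides of the EpCAM- libraries (70.8% and 70.9%) for paralogues 4 to 8. In coculture both EpCAM+ libraries (76.6% and 76.7%) were above both EpCAM- libraries (70.2% and 69.6%). Such wide ranges hide differences between single paralogues. In coculture the mean of Hoxa5 was 9.05 FPKM in EpCAM+ and 38.0 in EpCAM-. Those of Hoxb8, Hoxc8 and Hoxd8, in the same range, were 0.128, 1.25 and 0.235 against 10.7, 30.1 and 18.8. Among the higher paralogues, Hoxa10 stood at 1.74 against 0.387 and Hoxa9 at 0.138 against 8.94.

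**Figure D2:**
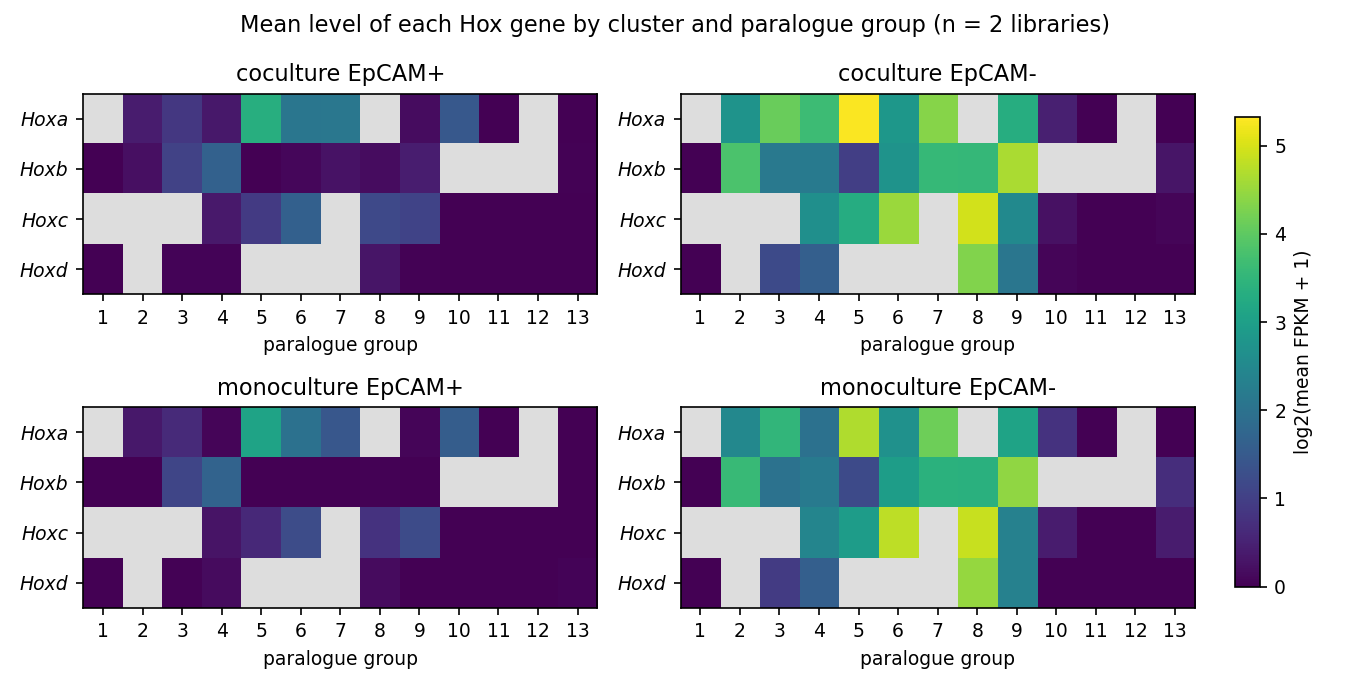
Each panel is a group, with clusters as rows, paralogue groups 1 to 13 as columns, and colour giving log2 of the mean FPKM + 1 over 2 libraries; grey marks paralogues that a cluster lacks or that are not shown. The EpCAM- panels are coloured from paralogue 2 or the lowest one above it to paralogue 9 in each cluster, and the EpCAM+ panels show Hoxa5 (9.05 and 7.56 FPKM) as their brightest cell.

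The caudal genes, paralogues 11 to 13, were silent or nearly so in both fractions, as were Hoxb1 and Hoxd1 at the rostral ends of their clusters. Hoxa13, Hoxc11, Hoxc12, Hoxd1, Hoxd11 and Hoxd12 were at 0 in all 8 libraries. Another 7 genes were above 0 in some library without reaching the minimum for testing of 1 FPKM in 2 libraries: Hoxa11, Hoxb1, Hoxb13, Hoxc10, Hoxc13, Hoxd10 and Hoxd13. Among them, Hoxb13, known for its use in the prostate and hindgut, reached 0.602 and 0.636 FPKM in monoculture EpCAM- and 0.306 and 0.172 in coculture EpCAM-. It stood at 0 and 0.0468 in coculture EpCAM+ and at 0 in both libraries of monoculture EpCAM+. Hoxc13, a hair follicle gene, stood at 0.349 and 0.309 FPKM in monoculture EpCAM- and at 0.0518 and 0.0459 in coculture EpCAM-. Hoxc10, used in lumbar motor neurons, reached 0.388 and 0.274 FPKM in monoculture EpCAM- and 0.155 and 0.194 in coculture EpCAM-. Both were at 0 in all EpCAM+ libraries. Hoxa11, Hoxb1, Hoxd10 and Hoxd13 did not pass 0.099 FPKM in any library. The depth is unknown, so a value of 0 gives no limit on the level.

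The question put to the single genes was which of them differ between EpCAM+ and EpCAM- in each culture. A gene counts here as higher or lower where limma's moderated test on log2(FPKM + 1) gave an adjusted p under 0.05, over all 12012 genes tested, and a change of at least 2-fold. Of the 39 members 26 were tested, and 16 of those passed the minimum only through EpCAM-. These were under 1 FPKM in every EpCAM+ library, so that they had to differ. Hoxa10 passed it only through EpCAM+, being under 1 FPKM in every EpCAM- library, so it had to differ as well. In coculture 21 of the 26 were lower in EpCAM+ and 0 higher, while 10.1% of all genes tested were lower and 16.5% higher. In monoculture 20 were lower and 0 higher, against 12.6% lower and 15.5% higher among all genes. The libraries of the fractions did not overlap for 93.4% of all genes tested in coculture and 93.3% in monoculture, so a lack of overlap says little about a member. Without the 2-fold minimum, 1 member was higher and 25 lower in coculture (59.2% and 28.0% of all genes), and 1 higher and 24 lower in monoculture (55.4% and 32.4%). By cluster, 6 of 9 tested genes of Hoxa, 6 of 8 of Hoxb, 5 of 5 of Hoxc and 4 of 4 of Hoxd were lower in coculture EpCAM+. In monoculture the numbers were 6, 6, 5 and 3. The 16 genes that passed the minimum only through EpCAM- hold all tested Hoxd genes, Hoxb2 and Hoxb5 to Hoxb9. The others are Hoxa2, Hoxa3, Hoxa4, Hoxa9, Hoxc4 and Hoxc5. The counts by cluster were thus largely set by the minimum, and the p-values of these genes below are description only. The median log2 fold change of all genes tested was 0.26 in coculture and 0.23 in monoculture, and changes below are given as deposited, without taking it off. Scaling by the median of ratios brings these medians to 9.6e-05 and 0.01, and the genes higher and lower over the whole table from 1976 and 1212 to 1486 and 1504 in coculture, and from 1860 and 1512 to 1443 and 1821 in monoculture. With that scaling 22 members were lower in coculture and 21 in monoculture.

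**Figure D3:**
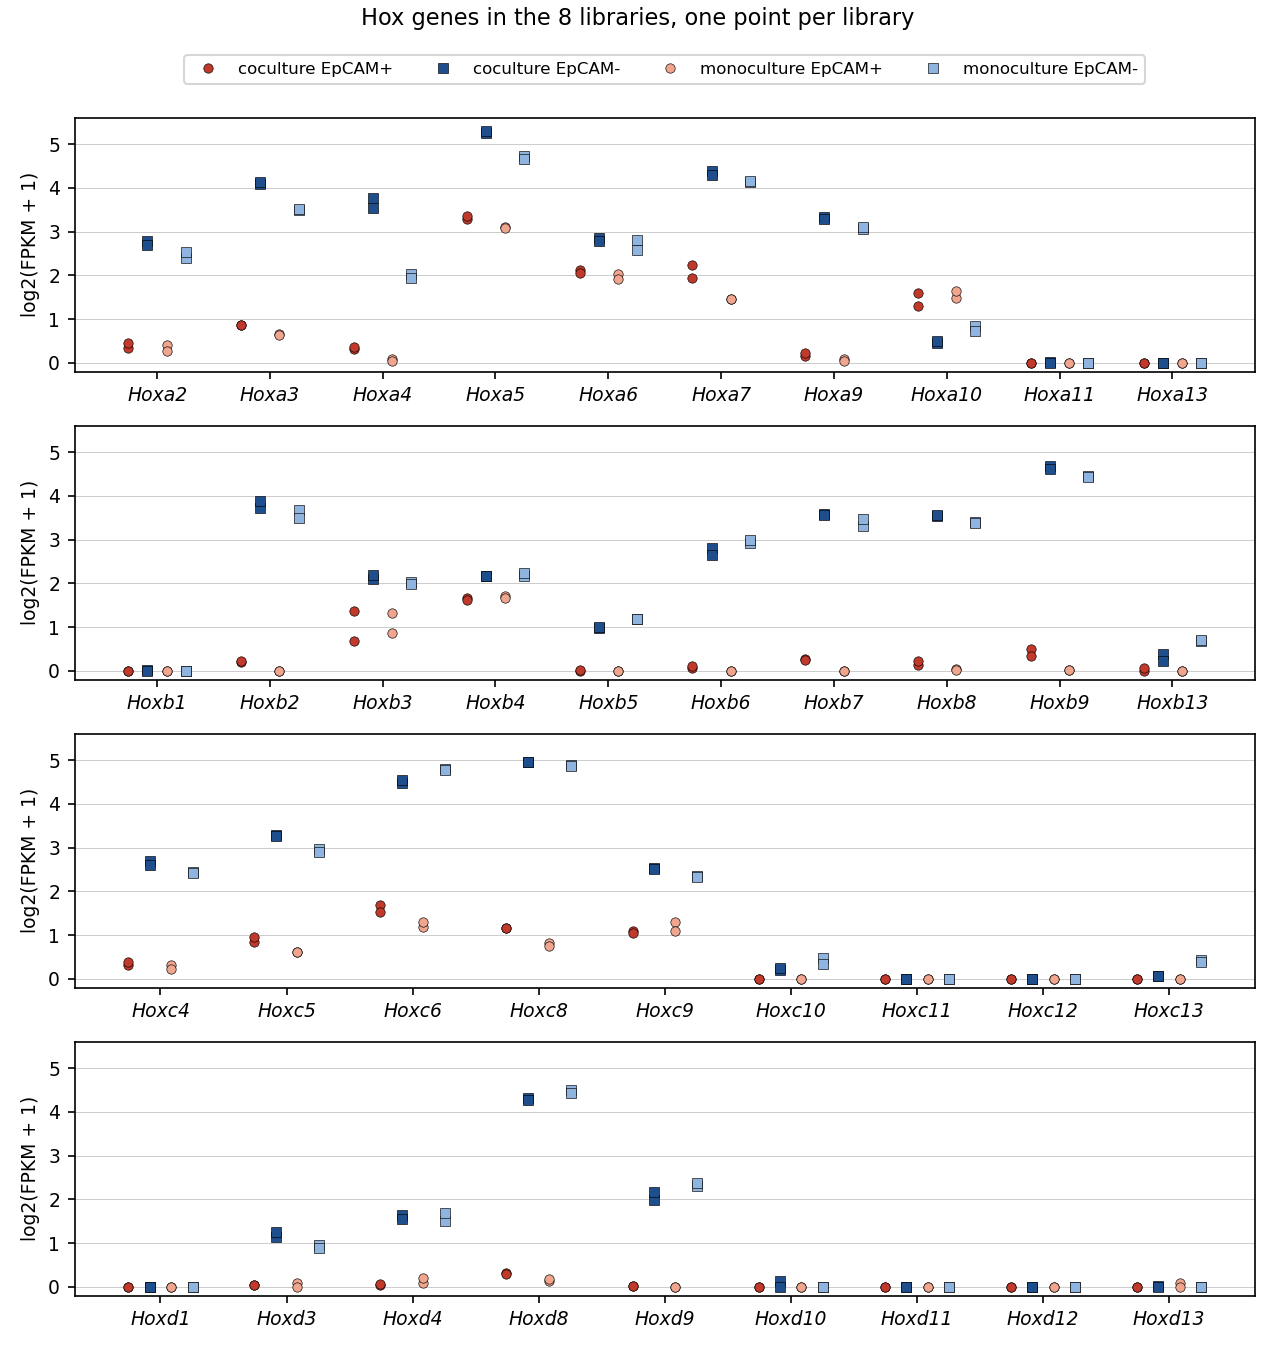
Points give log2(FPKM + 1) of 38 Hox genes in each of the 8 libraries, 1 panel per cluster, with circles for EpCAM+ and squares for EpCAM- and darker colours for coculture. Hoxa10 is the gene whose circles lie above its squares in both cultures, and Hoxb2 and Hoxb5 to Hoxb9 show circles near 0 under squares of up to 24.9 FPKM.

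In Hoxa (chromosome 6, GRCm38, all genes on the minus strand) Hoxa5, Hoxa6 and Hoxa7 were read in both fractions, while Hoxa4 was under 0.3 FPKM in every EpCAM+ library. Hoxa5 (chr6:52201754-52204587), a lung and mammary gene that is a known activator of p53, was the highest Hox gene of both EpCAM+ groups and of coculture EpCAM-. It stood at 8.84 and 9.26 FPKM in coculture EpCAM+ and 37.4 and 38.6 in coculture EpCAM-. In monoculture it stood at 7.67 and 7.45 in EpCAM+ and 25.7 and 24.2 in EpCAM-. The EpCAM+ libraries were well below the EpCAM- libraries in both cultures, and the log2 fold changes were -1.96 in coculture and -1.60 in monoculture (SE 0.040 in both, adjusted p = 1.3e-09 and 3.9e-09, limma). Hoxa6, its neighbour, stood at 3.38 and 3.12 FPKM in coculture EpCAM+, 6.25 and 5.86 in coculture EpCAM-, 3.09 and 2.77 in monoculture EpCAM+ and 5.98 and 4.95 in monoculture EpCAM-. The groups do not overlap, but the changes of -0.73 and -0.71 (adjusted p = 5.9e-05 and 6.4e-05, limma) are under the 2-fold minimum. Hoxa7, a gene of the thoracic region, stood at 3.73 and 2.86 FPKM in coculture EpCAM+ against 20.1 and 18.7 in EpCAM-, and at 1.74 and 1.74 in monoculture EpCAM+ against 16.7 and 16.9 in EpCAM-. Its change was -2.25 (SE 0.087, adjusted p = 5.9e-08, limma) in coculture and -2.70 (SE 0.087, adjusted p = 1.7e-08) in monoculture.

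Hoxa10 (chr6:52231197-52240854), a gene of the uterus and of the lumbar region, was the single tested member with a higher mean in EpCAM+ of both cultures. It was not called at 2-fold. Because it passed the minimum for testing only through EpCAM+, it had to differ, and its p-values are description only. It stood at 1.46 and 2.03 FPKM in coculture EpCAM+ and 0.370 and 0.404 in coculture EpCAM-. In monoculture it stood at 1.80 and 2.13 in EpCAM+ and 0.789 and 0.661 in EpCAM-. All 4 EpCAM+ libraries lay above all 4 EpCAM- libraries, and the mean FPKM was 4.51 times as high in EpCAM+ of coculture and 2.71 times in monoculture. On the log2(FPKM + 1) scale the change was 0.98 (SE 0.104, adjusted p = 3.7e-05, limma) in coculture and 0.78 (SE 0.104, adjusted p = 0.00014) in monoculture, just under the 2-fold minimum in the former. With a pseudocount of 0.5 instead of 1 it passed that minimum in both cultures, at 1.33 and 1.01. Without coculture EpCAM+ replicate 1 it passed in coculture, at 1.13. After scaling by the median of ratios it was 0.84 and 0.65.

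The neighbour of Hoxa10 went the other way. Hoxa9 (chr6:52223100-52231089), a gene of blood stem cells and, with its paralogues, of the mammary gland, stood at 9.14 and 8.75 FPKM in coculture EpCAM- and 7.40 and 7.68 in monoculture EpCAM-. In EpCAM+ it stood at 0.109 and 0.167 in coculture and 0.0572 and 0.0375 in monoculture. All 4 EpCAM+ libraries were thus near 0, with a change of -3.13 (SE 0.052, adjusted p = 3.5e-10, limma) in coculture and -3.03 (SE 0.052, adjusted p = 3.9e-10) in monoculture. EpCAM+ cells therefore read Hoxa5, Hoxa6 and Hoxa7 on one side of Hoxa9 and Hoxa10 on the other at 1 FPKM or more in every library, and Hoxa9 under 0.2 FPKM in every library.

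Toward the rostral end of Hoxa, genes of the pharyngeal arches were read in EpCAM- and little in EpCAM+. Hoxa2, which sets the identity of the hyoid arch, stood at 5.94 and 5.43 FPKM in coculture EpCAM- and 4.29 and 4.84 in monoculture EpCAM-, against 0.213 to 0.376 over the EpCAM+ libraries. Its change was -2.34 in coculture and -2.13 in monoculture (SE 0.079, adjusted p = 2.6e-08 and 4.1e-08, limma). Hoxa3, a thymus and parathyroid gene, stood at 16.04 and 16.6 FPKM in coculture EpCAM- and 10.3 and 10.5 in monoculture EpCAM-, against 0.816 and 0.832 in coculture EpCAM+ and 0.569 and 0.550 in monoculture EpCAM+. Its change was -3.25 (SE 0.043, adjusted p = 1.1e-10, limma) in coculture and -2.87 (SE 0.043, adjusted p = 2.0e-10) in monoculture. Both genes were thus far below EpCAM- in EpCAM+ of either culture.

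In Hoxb (chr11:96194316-96368256, plus strand) EpCAM+ cells held Hoxb3 and Hoxb4 and little else. Hoxb4 (chr11:96318267-96321638), known for expanding blood stem cells when overexpressed, stood at 2.18 and 2.09 FPKM in coculture EpCAM+, 3.49 and 3.52 in coculture EpCAM-, 2.30 and 2.17 in monoculture EpCAM+ and 3.48 and 3.68 in monoculture EpCAM-. The EpCAM+ mean was 61.0% and 62.4% of the EpCAM- mean, and the changes of -0.52 and -0.50 (SE 0.049, adjusted p = 1.6e-05 and 1.9e-05, limma) are under the 2-fold minimum. Hoxb3, a rhombomere gene, was the least even of the members within a group. It stood at 1.57 and 0.602 FPKM in coculture EpCAM+, 3.26 and 3.57 in coculture EpCAM-, 0.811 and 1.49 in monoculture EpCAM+ and 3.08 and 2.97 in monoculture EpCAM-. Its change was -1.12 (SE 0.218, adjusted p = 0.0014, limma) in coculture and -0.92 (SE 0.218, adjusted p = 0.0041) in monoculture, and without coculture EpCAM+ replicate 2 the former was -0.78 and under the 2-fold minimum. Without monoculture EpCAM+ replicate 2 the latter was -1.15 and past it. Exons of Hoxb3 share 52.93% of their bases, and those of Hoxb2 27.32%, with the antisense gene Hoxb3os. Whether the counting used strand is not stated, so reads of these genes and of the antisense RNA cannot be told apart.

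The block from Hoxb5 to Hoxb9 was read in EpCAM- and all but absent from EpCAM+. Hoxb9 (chr11:96271457-96276595), the mammary paralogue 9 gene of this cluster, stood at 24.9 and 23.5 FPKM in coculture EpCAM- and 20.9 and 20.6 in monoculture EpCAM-. It stood at 0.408 and 0.275 in coculture EpCAM+ and at 0.0162 and 0.0125 in monoculture EpCAM+. Its change of -4.23 (SE 0.058, adjusted p = 1.4e-10, limma) in coculture and -4.42 (SE 0.058, adjusted p = 9.9e-11) in monoculture was the largest of any member in both cultures on this scale. By the ratio of mean FPKM in coculture, Hoxb9 (70.8) came after 6 members, from Hoxd9 (178) and Hoxb5 (116) to Hoxd8 (79.9), each with an EpCAM+ mean under that of Hoxb9. Hoxb8, a gene of the spinal cord and of microglial precursors, stood at 10.6 and 10.8 FPKM in coculture EpCAM- and 9.58 and 9.35 in monoculture EpCAM-, against 0.0917 and 0.164 in coculture EpCAM+ and 0.0232 and 0.0183 in monoculture EpCAM+. Hoxb7, which can induce FGF2 in breast cancer cells, stood at 10.98 and 10.8 FPKM in coculture EpCAM- and 8.91 and 10.0 in monoculture EpCAM-. In EpCAM+ it was at 0.200 and 0.179 in coculture and at 0 in both monoculture libraries. All 3 genes were thus absent or nearly so from monoculture EpCAM+ and at a low level in coculture EpCAM+. Their neighbour Hoxb6 stood at 5.26 to 7.01 FPKM over the EpCAM- libraries, 0.0480 and 0.0804 in coculture EpCAM+ and 0 in monoculture EpCAM+. Hoxb5, used in enteric neural crest, reached 0.973 to 1.29 in EpCAM-, 0 and 0.0171 in coculture EpCAM+ and 0 in monoculture EpCAM+. The changes of Hoxb8, Hoxb7 and Hoxb6 were -3.37, -3.32 and -2.63 in coculture and -3.36, -3.39 and -2.97 in monoculture (adjusted p from 1.9e-10 to 3.0e-09, limma). Hoxb5 passed the 2-fold minimum in monoculture (-1.19, adjusted p = 5.7e-08, limma) and not in coculture (-0.98, adjusted p = 2.3e-07). With a pseudocount of 0.5 instead of 1 the coculture change was -1.55.

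Hoxb2, which lies beyond Hoxb3 at the other side and acts in facial motor neurons, followed the same pattern as the Hoxb5 to Hoxb9 block. It stood at 12.2 and 13.9 FPKM in coculture EpCAM-, 11.8 and 10.4 in monoculture EpCAM-, 0.1497 and 0.176 in coculture EpCAM+ and 0 in both libraries of monoculture EpCAM+. Its change was -3.59 in both cultures (SE 0.076, adjusted p = 1.5e-09 and 1.3e-09, limma). Along Hoxb of EpCAM+ cells, Hoxb3 and Hoxb4 were thus flanked on both sides by genes under 0.5 FPKM in every EpCAM+ library, while in EpCAM- cells every gene from Hoxb2 to Hoxb9 reached 0.9 FPKM or more in every library.

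In Hoxc (chr15:102921103-103036852, plus strand) all 5 tested genes were lower in EpCAM+, and 4 of them, Hoxc5, Hoxc6, Hoxc8 and Hoxc9, stood at 0.5 FPKM or more in all 4 EpCAM+ libraries. Hoxc8 (chr15:102990607-102994111), a gene of the thoracic skeleton and of motor neurons to the forelimb, was the highest Hox gene of monoculture EpCAM-. It stood at 30.1 and 30.1 FPKM in coculture EpCAM- and 28.5 and 28.4 in monoculture EpCAM-, against 1.25 and 1.25 in coculture EpCAM+ and 0.765 and 0.687 in monoculture EpCAM+. Its change was -3.79 (SE 0.040, adjusted p = 3.8e-11, limma) in coculture and -4.09 (SE 0.040, adjusted p = 2.2e-11) in monoculture. Hoxc6 (chr15:102998257-103011881), also of the forelimb level, stood at 21.2 and 22.5 FPKM in coculture EpCAM- and 26.9 and 26.4 in monoculture EpCAM-. In EpCAM+ it stood at 2.25 and 1.91 in coculture and 1.27 and 1.45 in monoculture, with changes of -2.89 and -3.55 (SE 0.065, adjusted p = 2.1e-09 and 5.6e-10, limma). Hoxc8 was thus 24.1 and 39.2 times, and Hoxc6 10.5 and 19.5 times, as high in EpCAM- without being at 0 in EpCAM+.

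Hoxc9 (chr15:102976439-102985099), which sets the thoracic identity of motor neurons, differed least in the cluster. It stood at 1.13 and 1.08 FPKM in coculture EpCAM+, 4.76 and 4.75 in coculture EpCAM-, 1.46 and 1.15 in monoculture EpCAM+ and 4.13 and 4.00 in monoculture EpCAM-. The changes were -1.45 and -1.14 (SE 0.067, adjusted p = 1.9e-07 and 7.9e-07, limma). Hoxc9 was thus the only paralogue 9 gene at 1 FPKM or more in any EpCAM+ library, while in EpCAM- it was below Hoxa9 and Hoxb9. Hoxc5 stood at 8.85 and 8.69 FPKM in coculture EpCAM- and 6.83 and 6.50 in monoculture EpCAM-, against 0.801 and 0.949 and 0.534 and 0.530 in the EpCAM+ libraries of the same cultures (changes -2.38 and -2.32). Hoxc4, of the cervical region, stood at 4.31 to 5.45 FPKM over the EpCAM- libraries and 0.161 to 0.311 over the EpCAM+ libraries (changes -2.30 and -2.16, adjusted p = 5.3e-09 and 7.0e-09, limma).

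In Hoxd (chr2:74668310-74765142, plus strand) no gene reached 0.3 FPKM in any EpCAM+ library. Hoxd8 (chr2:74704615-74707933), a trunk gene, stood at 19.1 and 18.5 FPKM in coculture EpCAM- and 21.7 and 20.8 in monoculture EpCAM-. In EpCAM+ it stood at 0.242 and 0.228 in coculture and 0.0903 and 0.132 in monoculture, with changes of -4.001 and -4.32 (SE 0.047, adjusted p = 6.5e-11 and 3.8e-11, limma). Hoxd9, the mammary paralogue 9 gene of the cluster, stood at 2.98 and 3.50 FPKM in coculture EpCAM-, 3.93 and 4.18 in monoculture EpCAM-, 0.0152 and 0.0213 in coculture EpCAM+ and 0 in both libraries of monoculture EpCAM+. Its changes were -2.06 and -2.34 (SE 0.067, adjusted p = 2.0e-08 and 8.3e-09, limma). Hoxd8 and Hoxd9 lie side by side and were the only Hoxd genes above 3 FPKM in any library. Hoxd4 stood at 1.84 to 2.23 FPKM over the EpCAM- libraries and 0.0331 to 0.156 over the EpCAM+ libraries (changes -1.56 and -1.45). Hoxd3 stood at 0.842 to 1.37 FPKM in EpCAM- and 0 to 0.0559 in EpCAM+. It passed the 2-fold minimum in coculture (-1.15, adjusted p = 4.5e-07, limma) and not in monoculture (-0.88, adjusted p = 2.2e-06). The monoculture change is compressed by the pseudocount of 1. There the mean FPKM of Hoxd3 was 31.9 times as high in EpCAM-, and a pseudocount of 0.5 gave -1.40. Without either coculture EpCAM- library Hoxd3 no longer reached the minimum for testing. Exons of Hoxd3 and Hoxd4 share 62.35% and 52.31% of their bases with other genes on the same strand, chiefly each other, so the counting could have split reads between them.

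Paralogues did not behave alike across the clusters. In group 4, Hoxb4 was the EpCAM+ gene (2.14 and 2.24 FPKM in coculture and monoculture), while Hoxa4, Hoxc4 and Hoxd4 stood at 0.266, 0.281 and 0.0374 in coculture EpCAM+ and 0.0518, 0.209 and 0.109 in monoculture EpCAM+. In group 5, Hoxa5 stood at 9.05 in coculture EpCAM+, Hoxc5 at 0.875 and Hoxb5 at 0.00854. In group 9, Hoxc9 stood at 1.11 and 1.31 in the EpCAM+ groups, Hoxa9 at 0.138 and 0.0474, Hoxb9 at 0.342 and 0.0144, and Hoxd9 at 0.0182 and 0. The order in coculture EpCAM- was another: Hoxb9 (24.2 ± 1.01), Hoxa9 (8.94 ± 0.274), Hoxc9 (4.76 ± 0.0132) and Hoxd9 (3.24 ± 0.371) (SD, n = 2). A single cluster thus carried most of a paralogue group in EpCAM+, and a different cluster in each of these groups. In monoculture EpCAM- Hoxc9 (4.06 ± 0.0871) and Hoxd9 (4.06 ± 0.175) were within their spread of each other (SD, n = 2).

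Part of the low Hox signal in EpCAM+ has the size of a trace that stromal genes in general left there. Over the 16 stromal markers, the coculture EpCAM+ libraries held a median of 1.75% and 1.76% of the EpCAM- mean, between 1.36% (Col6a3) and 2.31% (Tagln). The monoculture EpCAM+ libraries held 0.143% and 0.142%, between 0.0762% (Lox) and 0.529% (Col5a1). In coculture, 11 of the 26 tested Hox genes had EpCAM+ means that were no larger a percentage of EpCAM- than the highest stromal marker, and 15 had larger ones. Among the former were Hoxa9 (1.54%), Hoxb2 (1.25%), Hoxb6 (1.14%), Hoxb7 (1.74%), Hoxb8 (1.20%), Hoxb9 (1.41%), Hoxd8 (1.25%) and Hoxd9 (0.562%). In monoculture, where the stromal share was lower, 8 of the 26 were no larger and 18 larger. Hoxb8 (0.219%), Hoxb9 (0.0694%) and Hoxd8 (0.522%) were again within the range of the markers or below it, and Hoxb2, Hoxb5, Hoxb6, Hoxb7 and Hoxd9 were at 0. The other 3 of the 11 lay above the range there: Hoxa4 (2.30% in coculture, 1.76% in monoculture), Hoxa9 (1.54% and 0.628%) and Hoxd4 (1.82% and 5.37%). Whether this trace is RNA of EpCAM- cells was not tested.

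**Figure D4:**
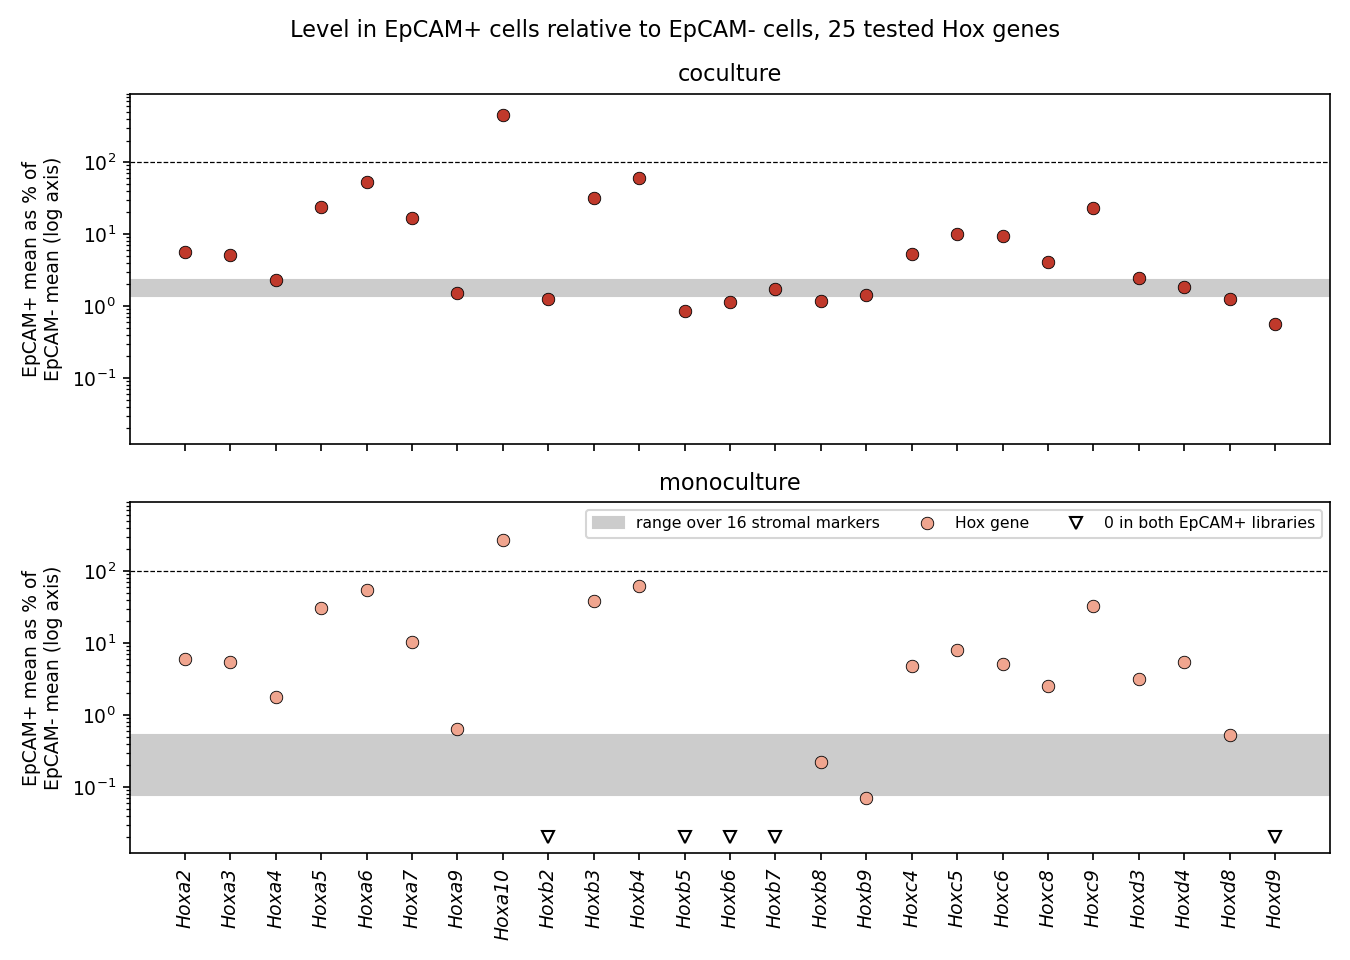
Points give the mean FPKM in EpCAM+ as a percentage of the mean in EpCAM- (log axis) for 25 tested Hox genes in each culture. The grey band is the range over 16 stromal markers in the EpCAM+ libraries (1.36% to 2.31% in coculture, 0.0762% to 0.529% in monoculture), the dashed line is equality, and triangles mark genes at 0 in both EpCAM+ libraries; the Hoxb2 and Hoxb5 to Hoxb9 points lie in or under the band, and those of Hoxa5, Hoxa6, Hoxa10, Hoxb4 and Hoxc9 far above it.

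Most of the other genes stood above that share by a wider margin. In coculture the EpCAM+ mean was 23.8% of the EpCAM- mean for Hoxa5, 53.7% for Hoxa6, 17.02% for Hoxa7, 31.8% for Hoxb3, 9.52% for Hoxc6 and 23.3% for Hoxc9, and in monoculture 30.3%, 53.7%, 10.4%, 38.0%, 5.12% and 32.2%. Hoxc5 (9.98% and 7.98%) and Hoxc8 (4.16% and 2.55%) were also above the highest marker in both cultures. Hoxd3 in coculture (2.48%) and Hoxa9 in monoculture (0.628%) were just above it. When the median stromal share was subtracted, Hoxc8 stood at 0.726 and 0.721 FPKM in coculture EpCAM+ and 0.724 and 0.647 in monoculture EpCAM+. The Hoxc8 levels of the cultures, 1.25 against 0.765 and 0.687 as deposited, thus came within 0.1 FPKM of each other. Hoxb2, Hoxb5, Hoxb6, Hoxb9 and Hoxd9 came to 0 in all 4 EpCAM+ libraries. The Hoxd sum fell to 0.0120 ± 0.00632 FPKM in coculture EpCAM+ and stayed at 0.245 ± 0.0137 in monoculture EpCAM+ (SD, n = 2). The counts of genes lower in EpCAM+, 21 in coculture and 20 in monoculture, were the same after this subtraction. It takes a share of the EpCAM- mean from EpCAM+, so it could hardly lower these counts, and the equal counts are no check of them.

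Between the cultures, EpCAM- cells gave 1 call among the members, Hoxa4, which was lower in monoculture. Of all genes tested, 1.96% were lower and 2.56% higher (4.52% in either direction), and the libraries of the cultures did not overlap for 80.0%. Hoxa4 (chr6:52189671-52191753), a gene of the cervical region, stood at 12.6 and 10.6 FPKM in coculture EpCAM- and 3.07 and 2.83 in monoculture EpCAM-. Both coculture libraries lay far above both monoculture libraries, and the change was -1.67 (adjusted p = 1.0e-06 by limma, SE 0.078). The genes on its sides were also lower in monoculture EpCAM-, though under the 2-fold minimum: Hoxa3 by -0.60 (SE 0.043, adjusted p = 1.1e-05, limma) and Hoxa5 by -0.59 (SE 0.040, adjusted p = 8.2e-06, limma). At an adjusted p under 0.05 alone, 6 members were higher and 13 lower in monoculture EpCAM- (32.4% and 30.3% of all genes). The summed Hoxa level was 107.99 ± 1.88 FPKM in coculture EpCAM- and 75.0 ± 0.910 in monoculture EpCAM-. Hoxc kept its level (71.0 ± 0.548 and 70.9 ± 0.974), Hoxb was at 72.5 ± 0.163 and 66.1 ± 0.247, and Hoxd at 25.4 ± 0.155 and 28.2 ± 0.281 (SD, n = 2). Exons of Hoxa4 share 16% of their bases with Gm29430 on the other strand.

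Within EpCAM+, 0 of the 26 members were higher and 0 lower at 2-fold in monoculture than in coculture by limma, against 0.266% and 1.67% of all genes tested, and the libraries of the cultures did not overlap for 77.4% of all genes. At an adjusted p under 0.05 alone, 1 member was higher and 12 lower (16.4% and 34.9% of all genes), and 13 members had an unadjusted p under 0.05. Hoxa7 had the largest change, -0.64 (SE 0.087, adjusted p = 0.00064, limma), with 3.73 and 2.86 FPKM in coculture and 1.74 in both monoculture libraries. Hoxb9 (-0.40), Hoxc8 (-0.38), Hoxc6 (-0.38) and Hoxc5 (-0.29) came next among genes with an adjusted p under 0.05. The stromal markers also stood at a higher percentage of EpCAM- in coculture EpCAM+ (1.75% and 1.76%) than in monoculture EpCAM+ (0.143% and 0.142%), and their part in these values was not tested. After subtraction of the median marker share Hoxa7 stood at 3.39 and 2.52 FPKM in coculture EpCAM+ and 1.72 and 1.71 in monoculture EpCAM+, while Hoxb9 stood at 0 in all 4 libraries. With a pseudocount of 0.1 instead of 1, Hoxa4 (-1.277), Hoxb2 (-1.39), Hoxb7 (-1.53) and Hoxb9 (-1.93) passed the 2-fold minimum.

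The interaction asks whether the change from coculture to monoculture differs between the fractions. It was called for Hoxa4 alone, at 1.40 (SE 0.111, adjusted p = 2.0e-05, limma), where 2.43% of all genes tested were called higher and 5.66% lower, 8.09% in all. The change of Hoxa4 was -0.27 in EpCAM+ and -1.67 in EpCAM-. This difference rests on the log2(FPKM + 1) scale, which compresses low values: Hoxa4 stood at 0.239 and 0.293 FPKM in coculture EpCAM+ and 0.0705 and 0.0332 in monoculture EpCAM+, so that EpCAM+ held 2.30% of the EpCAM- mean in coculture and 1.76% in monoculture. With a pseudocount of 0.1 the interaction of Hoxa4 was 0.66 (adjusted p = 0.033, limma) and under the 2-fold minimum.

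Hox proteins bind DNA with partners of the TALE class, the Pbx, Meis and Pknox homeodomain proteins. This list of 9 genes was chosen, like the others below, with earlier results of these data known. Of the 8 tested, 1 was higher and 3 lower in coculture EpCAM+, and 0 and 3 in monoculture EpCAM+, with medians of -0.39 and -0.42 against 0.26 and 0.23 over all genes. Of all genes tested, 16.5% were higher and 10.1% lower in coculture, and 15.5% and 12.6% in monoculture. Meis1 stood at 2.41 and 3.04 FPKM in EpCAM+ of coculture and monoculture and 6.83 and 7.97 in EpCAM- (changes -1.20 and -1.15). Meis2 was also lower (-1.21 and -1.35), with an SD of 1.47 and 1.44 FPKM over the EpCAM- libraries of coculture and monoculture. Pknox2 was at 0.0628 and 0 FPKM in EpCAM+ and 3.40 and 4.89 in EpCAM- (changes -2.05 and -2.56), and passed the minimum for testing only through EpCAM-. Meis3 (0.91 and 0.77), Pbx2 (0.62 and 0.40), Pbx3 (-0.23 and -0.36) and Pknox1 (-0.55 and -0.48) did not reach the 2-fold minimum, and Pbx4 was not tested. Pbx2, Pbx3 and the Meis partners were thus present in both fractions at 1 FPKM or more, with Pbx2 and Meis3 at the higher levels in EpCAM+.

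Polycomb group proteins keep Hox genes silent, and trithorax group proteins and H3K27 demethylases keep them active. All 22 Polycomb genes listed were tested. In coculture 2 were higher and 0 lower in EpCAM+, and in monoculture 4 were higher and 2 lower, with medians of 0.54 and 0.38. Over all genes 16.5% were higher and 10.1% lower in coculture, and 15.5% and 12.6% in monoculture. Phc2 (0.99 and 1.39) and Mtf2 (1.119 and 1.276) were higher in EpCAM+, the former at 2-fold in monoculture only. Phf19 (-0.91 and -1.38) and Cbx6 (-0.37 and -1.282) were lower in monoculture EpCAM+. The catalytic subunit Ezh2 stood at 44.6 and 46.7 FPKM in EpCAM+ and 30.9 and 25.9 in EpCAM- (changes 0.52 and 0.83), under the 2-fold minimum, and its value is named because it is the enzyme of the complex. Of the 11 trithorax and demethylase genes, 0 were called in coculture, where 0.38 was the median, and 1 in monoculture, where the median was 0.72. That gene is the demethylase Kdm6b, higher in EpCAM+ by 1.05 (SE 0.046, adjusted p = 1.1e-07, limma) in monoculture and 0.59 in coculture.

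Retinoic acid switches on Hox genes in order during development. Of 13 tested genes of 18 in the retinoid list, 5 were higher and 3 lower in EpCAM+ in each culture, with medians of 0.43 and 0.13 (all genes, 16.5% higher and 10.1% lower in coculture, 15.5% and 12.6% in monoculture). Higher were the retinal oxidase Aldh1a3 (3.23 and 4.79), the retinol dehydrogenase Rdh10 (3.79 and 3.11) and the binding protein Crabp2 (3.89 and 3.36). Also higher, and named after its values were seen, was Cyp26a1 (2.63 and 1.49), which breaks retinoic acid down. Crabp2 and Cyp26a1 passed the minimum for testing only through EpCAM+, so they had to differ. Of the lower genes, Cyp26b1, another degrading enzyme, was called in both cultures (-2.22 and -1.72). The receptor Rarb was called in coculture (-1.02, with 0.13 in monoculture), and the retinal oxidase Aldh1a1 in monoculture (-2.06, with 0.46 in coculture). These genes too were named after their values were seen. Aldh1a1 passed the minimum for testing only through monoculture EpCAM-. Aldh1a3 stood at 29.3 ± 0.221 FPKM in coculture EpCAM+ and 60.1 ± 1.71 in monoculture EpCAM+, against 2.24 ± 0.134 and 1.22 ± 0.232 in EpCAM- (SD, n = 2). Dhrs3, which turns retinal back into retinol, was lower in EpCAM+ (-2.93 and -3.28), at 12.1 and 6.396 FPKM against 99.4 and 70.8. The caudal and axial inducers were mostly unread: Cdx2 and Lin28a were at 0 in every library, 2 of 8 genes were tested, and Gmnn alone was called, higher in coculture EpCAM+ (1.03, adjusted p = 1.1e-08, limma).

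Among RNAs without a protein that lie in the clusters, some were lower in EpCAM+. Of the 18 listed, 4 were tested, 3 were lower in coculture EpCAM+ and 2 in monoculture EpCAM+, with medians of -1.61 and -1.43. Of all genes tested, 10.1% were lower in coculture and 12.6% in monoculture. Mira, an RNA of the Hoxa6 and Hoxa7 region, stood at 28.7 and 29.6 FPKM in coculture EpCAM- and 27.6 and 23.6 in monoculture EpCAM-, against 3.81 and 4.44 in coculture EpCAM+ and 1.70 and 2.67 in monoculture EpCAM+ (changes -2.56 and -3.08). Hoxaas3, which overlaps Hoxa7 on the other strand, changed by -1.04 (adjusted p = 1.8e-05, limma) and -0.78. Hoxaas3 was under 1 FPKM in every EpCAM+ library and passed the minimum for testing only through EpCAM-, so it had to differ. Hotairm1, an RNA of the Hoxa cluster, did not differ beyond the threshold (-0.09 and 0.15, adjusted p = 0.30 and 0.10, limma), with levels from 9.497 to 11.7 FPKM over the 8 libraries. Hotair and Hottip, known RNAs of the Hoxc and Hoxa clusters, were at 0 in all 8 libraries.

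The microRNA gene Mir196a-1, which lies between Hoxb9 and Hoxb13, was at 0 in all 4 EpCAM+ libraries. It stood at 3.86 and 3.23 FPKM in coculture EpCAM- and 3.58 and 2.90 in monoculture EpCAM- (changes -2.18 and -2.08). It passed the minimum for testing only through EpCAM-, so it had to differ. These values are of the hairpin gene in total RNA libraries. The mature miRNA was not measured. Its mature 5p strand is given below beside that of Mir196b, which lies in Hoxa next to Hoxa9 and was at 0 in 7 of the 8 libraries, because the pair share their seed, in capitals (bases 2 to 8). Both are known repressors of Hox mRNAs. The sequences are from RefSeq (GRCm38.p6), 5′ to 3′, from chr11:96265187-96265208 on the plus strand and chr6:52230129-52230150 on the minus strand.
miR-196a-5p: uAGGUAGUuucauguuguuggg
miR-196b-5p: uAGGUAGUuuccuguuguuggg

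Genes that flank the clusters were not lower at 2-fold in EpCAM+. Of 13 tested of 20 listed, 0 were lower in either culture (10.1% and 12.6% of all genes). In each culture 2 were higher in EpCAM+ (16.5% and 15.5% of all genes), with medians of 0.46 and 0.38. These were Snx10 beside Hoxa (1.64 and 1.53) and Smug1 beside Hoxc (1.32 and 1.33). Evx1 and Evx2, the homeobox genes at the caudal ends of Hoxa and Hoxd, were at 0 in every library. Patterning factors outside the clusters were mostly lower in EpCAM+, as the Hox genes were: of 17 tested of 29, 3 were higher and 9 lower in coculture (16.5% and 10.1% of all genes) and 2 and 9 in monoculture (15.5% and 12.6%), with medians of -2.28 and -2.20. The mesenchymal factor Prrx1 stood at 1.17 and 0.0614 FPKM in EpCAM+ of coculture and monoculture and 71.3 and 70.3 in EpCAM- (changes -5.06 and -6.07, adjusted p = 8.1e-12 and 2.9e-12, limma). Pitx1, the hindlimb factor, changed by -4.30 and -4.90, and Prrx2 by -2.70 and -5.59. Both passed the minimum for testing only through EpCAM-. The genes higher in coculture EpCAM+, named after their values were seen, were Dlx5 (4.33), Alx1 (1.94) and Shox2 (1.32). Dlx5 and Alx1 passed the minimum for testing only through EpCAM+, so they had to differ.

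The upstream sequence of members with unlike patterns is shown for reference. RefSeq gave a start for 22 of the 39 members, with 24 windows of 250 bases before the start (GRCm38.p6). Their median number of CpG was 12.5 against 6 over all 32851 windows, and their median GC content 58.6% against 52.4%. Motifs were searched on both strands, and matches of different motifs may overlap. The Hox-Pbx site TGATNNAT was in 4 of the 24 windows (16.7%) and in 7.68% of all windows. The homeodomain core TAATTA was in 2 (8.33%) and in 4.84%, and the Meis site TGACAG in 2 (8.33%) and in 15.9%. The motif AGGTCA, which is a part of a retinoid receptor element and not a whole one, was in 6 (25.0%) and in 14%. A match is a run of letters and does not show binding. The windows below are 5′ to 3′ along the gene, with matches in capitals. Hoxa5 (chr6:52204588-52204837, minus strand) and Hoxb4 (chr11:96318017-96318266, plus strand) were read in both fractions, Hoxa10 (chr6:52240855-52241104, minus strand, the farther upstream of its 2 starts) was higher in EpCAM+, and Hoxb8 (chr11:96281655-96281904, plus strand) and Hoxd8 (chr2:74704365-74704614, plus strand) were read in EpCAM-.
Hoxa5: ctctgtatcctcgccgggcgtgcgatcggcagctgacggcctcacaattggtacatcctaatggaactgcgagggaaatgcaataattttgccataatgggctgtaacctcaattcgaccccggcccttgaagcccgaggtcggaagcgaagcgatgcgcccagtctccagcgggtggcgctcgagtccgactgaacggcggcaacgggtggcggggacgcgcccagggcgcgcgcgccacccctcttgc
Hoxb4: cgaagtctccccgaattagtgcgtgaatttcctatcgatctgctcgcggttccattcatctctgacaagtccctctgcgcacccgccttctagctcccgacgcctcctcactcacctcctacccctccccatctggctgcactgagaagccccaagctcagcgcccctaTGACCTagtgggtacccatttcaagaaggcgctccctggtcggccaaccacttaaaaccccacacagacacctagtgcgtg
Hoxa10: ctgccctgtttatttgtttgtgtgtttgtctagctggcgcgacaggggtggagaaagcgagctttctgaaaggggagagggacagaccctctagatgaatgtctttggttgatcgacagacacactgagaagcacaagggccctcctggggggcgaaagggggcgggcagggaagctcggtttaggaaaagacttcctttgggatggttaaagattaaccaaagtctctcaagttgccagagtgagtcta
Hoxb8: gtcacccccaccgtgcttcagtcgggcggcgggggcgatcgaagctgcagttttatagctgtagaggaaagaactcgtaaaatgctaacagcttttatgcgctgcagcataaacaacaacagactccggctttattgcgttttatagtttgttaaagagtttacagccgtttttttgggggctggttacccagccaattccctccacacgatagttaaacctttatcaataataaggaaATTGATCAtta
Hoxd8: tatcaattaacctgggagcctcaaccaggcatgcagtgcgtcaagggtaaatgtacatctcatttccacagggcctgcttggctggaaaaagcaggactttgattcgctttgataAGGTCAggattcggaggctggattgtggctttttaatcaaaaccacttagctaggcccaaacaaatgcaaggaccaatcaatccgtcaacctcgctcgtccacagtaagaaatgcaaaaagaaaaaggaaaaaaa

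In the Hoxb8 window the capitals are the reverse complement of the Hox-Pbx motif. In the Hoxb4 window they are the reverse complement of AGGTCA, and in the Hoxd8 window AGGTCA itself. The Hoxa5 window holds 28 CpG and the Hoxa10 window shown 7, and neither holds a match to the 4 motifs. The window of the other Hoxa10 start holds 20 CpG and no match. The windows of Hoxb8, Hoxb4 and Hoxd8 hold 12, 14 and 6 CpG. Of the windows not shown, those of Hoxa9 and Hoxd9, genes read in EpCAM-, hold no match. Windows with and without a match thus occur among the genes read in both fractions as well as among those read in EpCAM-.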

How the data were processed

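Total RNA of EpCAM-sorted MCa-P1362 cells was sequenced in 8 libraries, and the authors deposited FPKM per gene for each library. Tools in the submitters' processing notes were HISAT2, HTSeq, edgeR, SAMtools, cutadapt and FastQC, with mm10 as the build and no version or role for any, and whether the counting used strand is not given in the sources used here. Read counts could not be recovered, so the depth is unknown. Genes with at least 1 FPKM in at least 2 libraries (12012 of 24421) were tested with limma 3.58.1 in R 4.3.3 on log2(FPKM + 1), with a mean for each of 4 groups over 8 libraries, 4 residual degrees of freedom, trended empirical Bayes and Benjamini-Hochberg adjustment over all genes. Sums and shares were computed in pandas 2.3.3 with NumPy 2.4.6 (Python 3.11.15), and figures drawn in matplotlib 3.10.9. The fits were checked on simulated data. In one alternative, each library had the other fraction's mean, times the library's median marker share, subtracted. Other alternatives were other pseudocounts, filters and scalings, a replicate block and each library left out. The labels name no date or batch. Gene positions are from GENCODE vM21, and sequences from RefSeq (GRCm38.p6). Described in full are members that reached 1 FPKM in some library. Of each pathway list, up to 4 called genes with the largest change in either culture are named, with the TALE genes. Single values of a few of these genes are not reported here. The members and lists were chosen with earlier results of these data known.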

Additional observations from a re-analysis of the deposited data

Results flagged for a closer look

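The difference of Hoxa4 between the fractions in its change from coculture to monoculture was 1.40 on the log2(FPKM + 1) scale, past the threshold of the interaction test. On that scale Hoxa4 changed by -1.67 in EpCAM- and by -0.27 in EpCAM+, where it stood near 0 in both cultures (0.266 and 0.0518 FPKM). As mean FPKM, EpCAM+ held 2.30% of EpCAM- in coculture and 1.76% in monoculture. With a pseudocount of 0.1 the interaction of Hoxa4 was under the 2-fold minimum. Of all genes tested, 8.09% were called for the interaction.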

How the results depend on the processing

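The number of Hox genes lower in EpCAM+ was 21 in coculture and 20 in monoculture, and ranged from 16 to 23 in coculture and 16 to 22 in monoculture over the alternatives. Leaving out 1 library gave 20 to 21 in both. With Hoxa10 counted where it was called higher, the calls reached 23 in both cultures, and 22 in coculture when a library was left out. The 50 single-gene changes between the fractions that are reported were recomputed 880 times, and 862 kept their direction and their side of the threshold. With a replicate block the counts were again 21 and 20, with 0 and 1 for the cultures in EpCAM+ and EpCAM- and 1 for the interaction. The deviations of same-numbered libraries correlated between -0.0726 and 0.0406, so no shared deviation was seen. This cannot exclude that same-numbered libraries came from one sort or culture. A pseudocount of 0.1 gave 4 genes lower in monoculture EpCAM+ in place of 0, and for the interaction 3 genes lower (Hoxb2, Hoxb7 and Hoxb9) in place of 1 higher. With the other fraction's share subtracted, the changes from coculture to monoculture in EpCAM+ turned to 0.0070 for Hoxa3, 0.010 for Hoxb8 and 0.11 for Hoxd8, and the interaction of Hoxc8 to 0.047. The depth is unknown, so no limit can be set on the level of genes at 0.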
